A study of Mus musculus with 2 samples.

Results

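The collagen chain genes were taken as the protein-coding genes on chromosomes 1 to 19 of the GENCODE M21 annotation of the mouse whose name is Col, a number, the letter a and a number. There were 42 of them among 20807 protein-coding genes of those chromosomes: 11 encode fibrillar chains, 6 encode chains of basement membranes and 25 encode the other types. The data are CTCF binding sites from ChIP-seq, the sequencing of DNA that is pulled down with an antibody, made on the heart of B6NCrl mice at postnatal day 0. The 2 libraries, replicate 1 and replicate 2, form 1 group without a contrast. The labels call them biological replicates, yet name 1 tissue sample and 1 donor for both, so their spread is perhaps only technical. Sex was not recorded, and the labels name no altered gene and no agent. The lists hold no expression values, so the tissue label could not be checked against marker genes.

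Collagens are proteins whose chains wind around each other in a long helix. Fibrillar collagens make the cables that give the heart wall and its valves their tensile strength, and basement membrane collagens make the thin sheets around muscle cells and beneath endothelium. Several other types coat fibrils, form beaded microfibrils or span the cell membrane. CTCF is a zinc finger protein that binds a long DNA motif in a fixed orientation, holds the bases of chromatin loops and can separate enhancers from promoters. Type IV collagen genes are known for their arrangement in head-to-head pairs, in which both genes are read outward from a shared start region. The pair of Col4a5 and Col4a6 lies on chromosome X and so outside the genes counted here.

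A peak is a region of CTCF enrichment in the authors' optimal list, filtered on agreement between peak lists, the irreproducible discovery rate (IDR). Its place is its summit, and its height is the authors' signal value from both libraries pooled, a number with no stated scale whose median over the 44533 optimal peaks was 60.8. At the 42 genes 143 peaks were found, 124 inside the genes and 41 within 10 kb of a gene's 5' end, counting those that are both in each, and no peak was counted for 2 members. Values of the single libraries come from the nearest summit within 100 bp in each library's own list. The lists hold no read depths, so the counting error of a signal is unknown.

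The sequences below are those on which the results turn, from the mm10 (GRCm38) genome, each 101 bases around a summit and written 5' to 3' on the strand of its CTCF core. Capitals mark the core, a match to the CTCF core consensus of 14 bases with at most 2 mismatches. The first is the strongest peak of any collagen gene, in an intron of Col18a1, and it holds a pair of cores on the same strand whose starts lie 34 bases apart. The next is the strongest peak inside a gene of the other types, that of Col26a1.
Col18a1, chr10:77130708-77130808, plus strand: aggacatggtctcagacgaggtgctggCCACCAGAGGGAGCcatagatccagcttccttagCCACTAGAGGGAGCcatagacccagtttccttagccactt
Col26a1, chr5:136790956-136791056, plus strand: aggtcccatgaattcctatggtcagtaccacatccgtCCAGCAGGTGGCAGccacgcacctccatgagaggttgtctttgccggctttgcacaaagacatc
Those at the type IV genes are the strongest of Col4a1 and Col4a2 and the peak of Col4a4 with a core of 0 mismatches, shown because they lie on either side of the paired starts.
Col4a4, chr1:82554481-82554581, plus strand: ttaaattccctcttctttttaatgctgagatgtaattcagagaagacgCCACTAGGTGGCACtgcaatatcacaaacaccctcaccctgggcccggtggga
Col4a1, chr8:11253639-11253739, plus strand: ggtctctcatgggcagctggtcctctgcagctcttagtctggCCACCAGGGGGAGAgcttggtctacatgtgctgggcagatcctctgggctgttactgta
Col4a2, chr8:11392932-11393032, minus strand: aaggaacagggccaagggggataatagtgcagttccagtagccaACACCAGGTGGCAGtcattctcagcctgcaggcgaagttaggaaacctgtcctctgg
The strongest peak of Col4a3 touches a noncoding exon, and its core alone, of 0 mismatches, is given.
Col4a3, chr1:82641864-82641877, minus strand: CCACCAGGGGGCGG
The 71 bases that separate the starts of Col4a4 and Col4a3 are given whole and in lower case, because their best match to the core has 4 mismatches. They are 69.0% G or C and hold 2 CpG.
Col4a4 and Col4a3 starts, chr1:82586850-82586920, plus strand: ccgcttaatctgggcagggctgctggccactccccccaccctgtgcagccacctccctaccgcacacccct
Among genes with a peak close to the 5' end, those of Col1a1 and Col3a1 are in the first intron, that of Col27a1 lies in its RefSeq promoter window, and those of Col13a1 and Col6a1 are upstream. For Col6a1 the strongest of its 3 upstream peaks is shown, which is the farthest of them from the start, because the nearest has no match of the core.
Col1a1, chr11:94937113-94937213, minus strand: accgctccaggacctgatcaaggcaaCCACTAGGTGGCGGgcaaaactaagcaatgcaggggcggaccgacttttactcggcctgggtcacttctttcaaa
Col3a1, chr1:45314082-45314182, minus strand: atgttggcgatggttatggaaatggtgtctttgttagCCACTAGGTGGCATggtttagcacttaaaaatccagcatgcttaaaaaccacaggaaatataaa
Col27a1, chr4:63215249-63215349, plus strand: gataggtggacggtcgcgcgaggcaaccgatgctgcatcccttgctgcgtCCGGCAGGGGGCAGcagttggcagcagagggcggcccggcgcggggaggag
Col13a1, chr10:61980573-61980673, plus strand: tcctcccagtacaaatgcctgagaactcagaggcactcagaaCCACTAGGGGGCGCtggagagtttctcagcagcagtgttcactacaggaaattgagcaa
Col6a1, chr10:76735174-76735274, minus strand: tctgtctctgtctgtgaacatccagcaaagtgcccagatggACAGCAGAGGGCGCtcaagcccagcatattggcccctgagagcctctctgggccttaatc
The last lies in a coding exon of Col8a2.
Col8a2, chr4:126309619-126309719, minus strand: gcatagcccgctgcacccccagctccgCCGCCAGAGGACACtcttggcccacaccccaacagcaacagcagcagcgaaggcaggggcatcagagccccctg

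CTCF peaks lay within 10 kb of the 5' end of 25 of the 42 collagen genes (59.5%, 95% exact binomial interval 43.3 to 74.4%, counting error only), where 51.9% of all protein-coding genes had one. The classes were not alike in their counts. Of the fibrillar genes 8 of 11 had such a peak (72.7%, interval 39.0 to 94.0%), and of the other types 17 of 25 (68.0%, interval 46.5 to 85.1%). None of the 6 basement membrane genes did (interval 0 to 45.9%; a count of 0 of 6 allows a share of up to 50%). The interval for the whole family holds the share of all genes. The 4 type IV genes share 2 start regions, so the 6 basement membrane genes stand for 4 regions. Their interval takes genes as independent and is too narrow. A count of 0 of 4 has an exact interval of 0 to 60.2%, which holds the 51.9% of all protein-coding genes. With 1 group of samples no test between classes was made, and genes are not replicates.

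**Figure D1:**
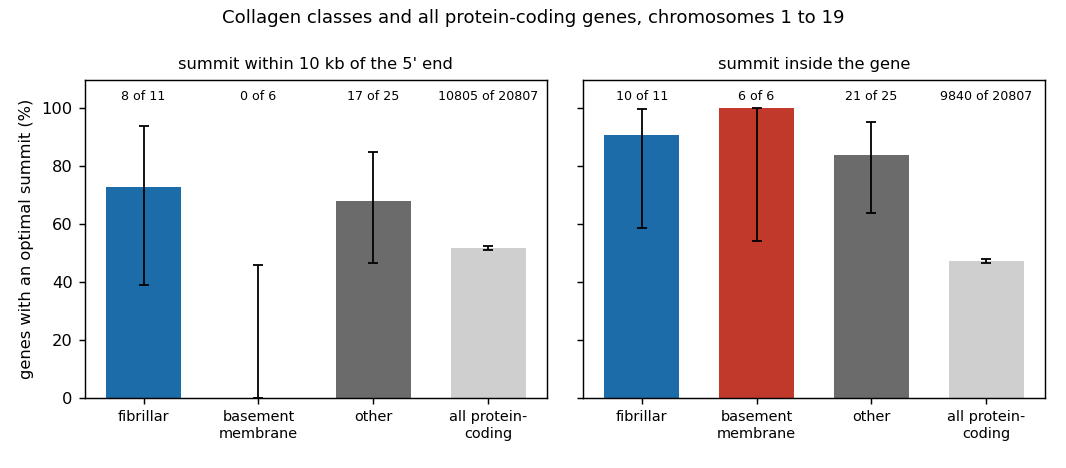
Share of genes (percent) with an optimal CTCF summit within 10 kb of the 5' end (left) and inside the gene record (right) in the 3 collagen classes and in all protein-coding genes of chromosomes 1 to 19, with exact 95% binomial intervals as error bars and the counts above. The basement membrane bar is at 0 of 6 on the left and at 6 of 6 on the right.

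Basement membrane genes are long, between 105 and 138.4 kb, so a further count took only genes of at least 100 kb. That limit does not match length. Above it the median was 124.8 kb for basement membrane genes, 153.1 kb for fibrillar genes and 141.5 kb for the other types. For all protein-coding genes above it the median was 168.9 kb. Of collagen genes of at least 100 kb, 12 of 24 (50%) had a summit within 10 kb of the 5' end, against 53.1% of all genes of that length. Among these, 3 of 5 fibrillar genes, 9 of 13 genes of other types and 0 of 6 basement membrane genes had one. The median distance from the 5' end to the nearest summit was 24.4 kb for basement membrane genes (14.9 to 42.4 kb), 2.59 kb for fibrillar genes, 5.96 kb for the other types and 9.03 kb for all protein-coding genes.

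The type IV chains Col4a1 and Col4a2 make the network found in nearly all basement membranes, and Col4a3 and Col4a4 make the one known from the kidney glomerulus. Neither pair had an optimal peak within 10 kb of its starts. Col4a4 (minus strand, chr1:82448423-82586849) and Col4a3 (plus strand, chr1:82586921-82722059) start 71 bases apart, and the nearest summits lay 14.9 kb into Col4a4 and 54.9 kb into Col4a3, a stretch of 69.9 kb without a peak. The records of Col4a1 (minus strand, chr8:11198423-11312826) and Col4a2 (plus strand, chr8:11312805-11449287) overlap by 22 bases at their starts, and the nearest summits lay 59.1 kb into Col4a1 and 42.4 kb into Col4a2, a stretch of 101.6 kb. Across all 1170 head-to-head pairs of protein-coding genes, those whose starts lie within 1000 bp of each other, 60.3% had a peak within 10 kb and 465 did not. The stretch around the starts had a median of 36.9 kb, and 26.2% of pairs had one at least as long as that of Col4a4 and Col4a3 and 14.4% one at least as long as that of Col4a1 and Col4a2. Both type IV stretches were thus above the median of such pairs and within their range. The relaxed lists, which reach far weaker peaks, had 3 pooled peaks within 10 kb of the Col4a4 and Col4a3 starts, the strongest at a signal of 5.51, and 0 found in both libraries. At the Col4a1 and Col4a2 starts they had 10 pooled peaks, the strongest at 8.11, of which 2 were found in both libraries. Of the optimal peaks, 0.200% had a signal below 8.11.

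Further inside, all 4 genes held peaks of high signal. Col4a1 had 2, at 59.1 kb (pooled signal 223.7, with 117 and 106 in replicates 1 and 2) and at 97.4 kb from the 5' end (167, with 89.6 and 75.8). Both were well above the list median in the pooled data. Col4a2 had 6, of which the strongest was at 80.2 kb (214, with 119 and 96.4) and the next at 107 kb (163, with 91.1 and 77.0), and the weakest and nearest was at 42.4 kb (37.1, with 18.5 and 17.2). The last 4 of the 6 stood close together between 107 and 118 kb. Col4a4 had 3, at 14.9 kb (44.3, with 29.2 and 14.4), 32.3 kb (141.0, with 70.9 and 69.8) and 110.4 kb (152.5, with 73.0 and 77.8), and Col4a3 had 1, at 54.9 kb (187, with 94.7 and 92.3). The weak Col4a4 peak was the only one of these 12 without a core and the one at which the libraries differed most in proportion.

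The cores nearest to the paired starts pointed toward each other at Col4a4 and Col4a3, from 32.3 kb on one side and 54.9 kb on the other. At Col4a1 and Col4a2 they pointed the same way, both on the plus strand. Among the 465 head-to-head pairs without a peak within 10 kb, the nearest cores faced each other at 25.2%, pointed the same way at 46.0% and pointed apart at 28.8%, so either arrangement was common.

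**Figure D2:**
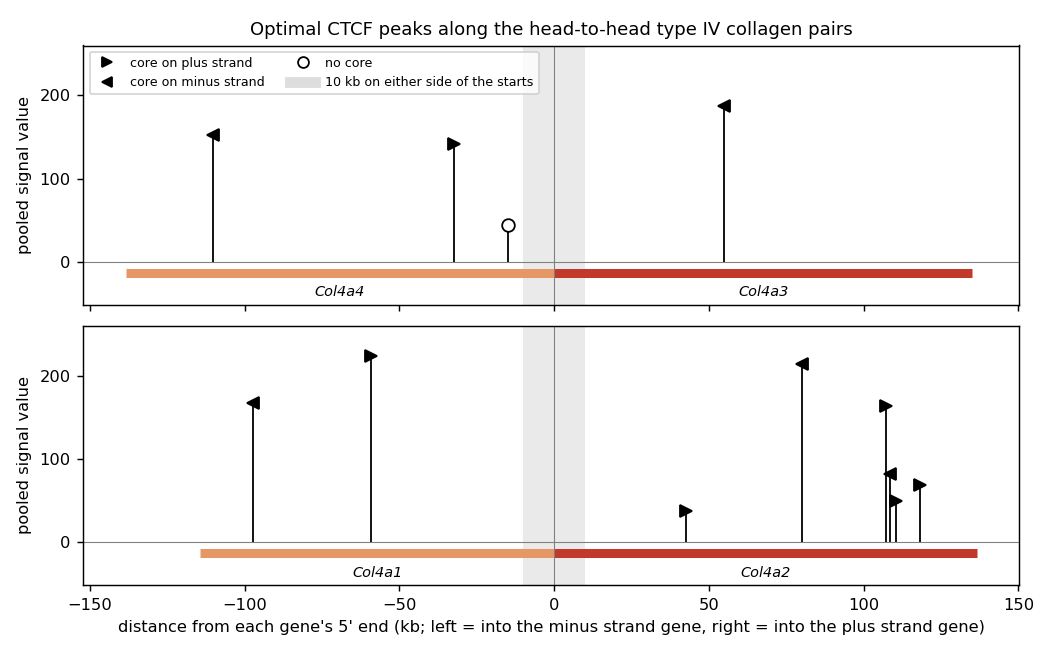
Optimal CTCF peaks along the type IV pairs, with distance from each gene's 5' end in kb on the horizontal axis (left is into the minus strand gene) and the pooled signal value as the height of each line. Triangles point along the strand of the core, the open circle has no core, and the grey band of 10 kb on either side of the starts is empty in both panels, which have their nearest peaks at 14.9 and 42.4 kb.

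Col15a1 and Col18a1 encode the multiplexins, chains of the basement membrane zone of vessels and muscle, and the end of the Col18a1 chain is released as endostatin. Col15a1 had 4 peaks between 26.9 and 47.7 kb, led by the one farthest in (197.5, with 91.1 and 105 in the libraries). Col18a1 (minus strand, chr10:77052178-77166548) had 6, between 22.0 and 96.3 kb. Its peak at 35.8 kb had a pooled signal of 401 and libraries of 225 and 182 (203 ± 30.1, SD, n = 2), the highest of all 143 collagen peaks, and that at 83.8 kb had 259 (146 and 112). The same peaks were strong in both libraries, and the weakest of the 6, at 16.1, gave 8.63 and 5.71. The gene has coding transcripts that start 52.6 and 77.1 kb into the record, so the strongest peak lies between the first start and the later ones.

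The absence near 5' ends of this class depended on which start was taken. With the starts of all annotated transcripts, 4 of the 6 genes had a peak within 10 kb of at least 1 start (Col15a1, Col18a1, Col4a1 and Col4a2), and with those of coding transcripts 2 did (Col18a1 and Col4a1, 33.3%). For all protein-coding genes the share was 61% with starts of any transcript and 55.9% with those of coding transcripts. In the conservative IDR list and without replicate 2, Col18a1 had a weak peak 7.16 kb from its 5' end (signal 12.4 in the conservative list), giving 1 of 6.

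Of the 36 peaks of fibrillar chain genes, 13 lay within 10 kb of a 5' end and the others farther inside the genes. These 13 belong to 8 genes, and Col1a1 has 4 of them, all on the gene's side of the start. Of the 13, 11 (84.6%) lay on that side. For the other types this was 11 of 28 (39.3%), and for all protein-coding genes 46.0% (43.8% for genes of at least 10 kb). Of all in-gene peaks, 9 of 34 in fibrillar genes (26.5%) lay in the first intron of the transcript with the longest coding sequence, against 1 of 22 in basement membrane genes (4.55%), 7 of 68 in the other types and 22.0% over all protein-coding genes. Of the 22 basement membrane peaks, 4 lay outside that transcript and could not be in its first intron.

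Col1a1 and Col1a2 encode the chains of type I collagen, the main fibril of the heart's interstitium, whose usual form holds both. They differed widely in these lists. Col1a1 (plus strand, chr11:94936224-94953042) had 4 peaks in its 16.8 kb, at 0.939 kb (pooled signal 174, with 95 and 78.1), 3.25 kb (223.2, with 119 and 103), 6.27 kb (49.1, with 27.4 and 26.9) and 8.32 kb (17.2, with 10.7 and 7.13). The 2 nearest the 5' end were strong in both libraries and the 2 farther in were weaker. Col1a2 (plus strand, chr6:4504814-4541544) had 1 peak in 36.7 kb, at 1.62 kb, with a pooled signal of 17.1 and libraries of 5.97 and 11.3 (8.63 ± 3.75, SD, n = 2). It also lay inside another gene record, Gm43921, within 1 kb of that record's 5' end. Each of the 2 Col1a1 peaks nearest the 5' end was higher than that of Col1a2 in both libraries. The Col1a1 peak at 8.32 kb was not, and its library values overlapped those of the Col1a2 peak. Replicate 2 was the lower at all 4 Col1a1 peaks and the higher at Col1a2.

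Col3a1, the reticular fibril chain that accompanies type I in vessel walls and heart, had a single peak 2.59 kb in, in its first intron (112, with 56.8 and 52.6). Its neighbour Col5a2, which runs toward it, had its only peak 71.2 kb from its 5' end (119, with 68.9 and 47.9), and the 24.6 kb between the genes held 0. Each gene thus had 1 peak above the list median, near the start in Col3a1 and far from it in Col5a2. Type V chains start and limit the width of type I fibrils, and Col5a1 was the collagen gene with the most peaks inside it, 9 along 153.1 kb. They ran from 0.899 to 109.9 kb, the strongest at 40.5 kb (171.5, with 91.4 and 77.2), the weakest at 109.9 kb (17.3, with 6.96 and 8.31). Another peak lay 0.481 kb upstream of Col5a1 (20.1), with no match in replicate 1 and 10.96 in replicate 2. Col5a3 had its only peak 10.7 kb in (121, with 67.9 and 53.5), just outside the 10 kb window, whereas the member just inside it was Col8a2 with a summit 8.70 kb upstream (144.7). Neither lies close enough to the limit for a summit shift of 100 bp to move it.

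Col27a1, a fibrillar chain of cartilage, had 7 peaks inside, of which the strongest was 1.29 kb from the 5' end of the record (186, with 110.5 and 74.5) and the weakest at 34.2 kb (14.2, with 9.97 and 3.37). The strongest lies in the RefSeq promoter window of the gene (chr4:63215162-63215461), since the GENCODE record starts farther upstream. Of the cartilage chains, Col2a1 had 2 weak peaks, at 3.31 and 12.2 kb (22.9 and 28.8), and Col11a1 had 3 between 2.01 and 117 kb (46.1 to 62.9). Col11a2 had none inside and 1 at 5.09 kb upstream, within the adjacent gene Rxrb (77.3, with 36.8 and 36.6). Col24a1 had 5, all beyond 72.9 kb (21.2 to 91.2). None of these 4 genes had a peak above 91.2.

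**Figure D3:**
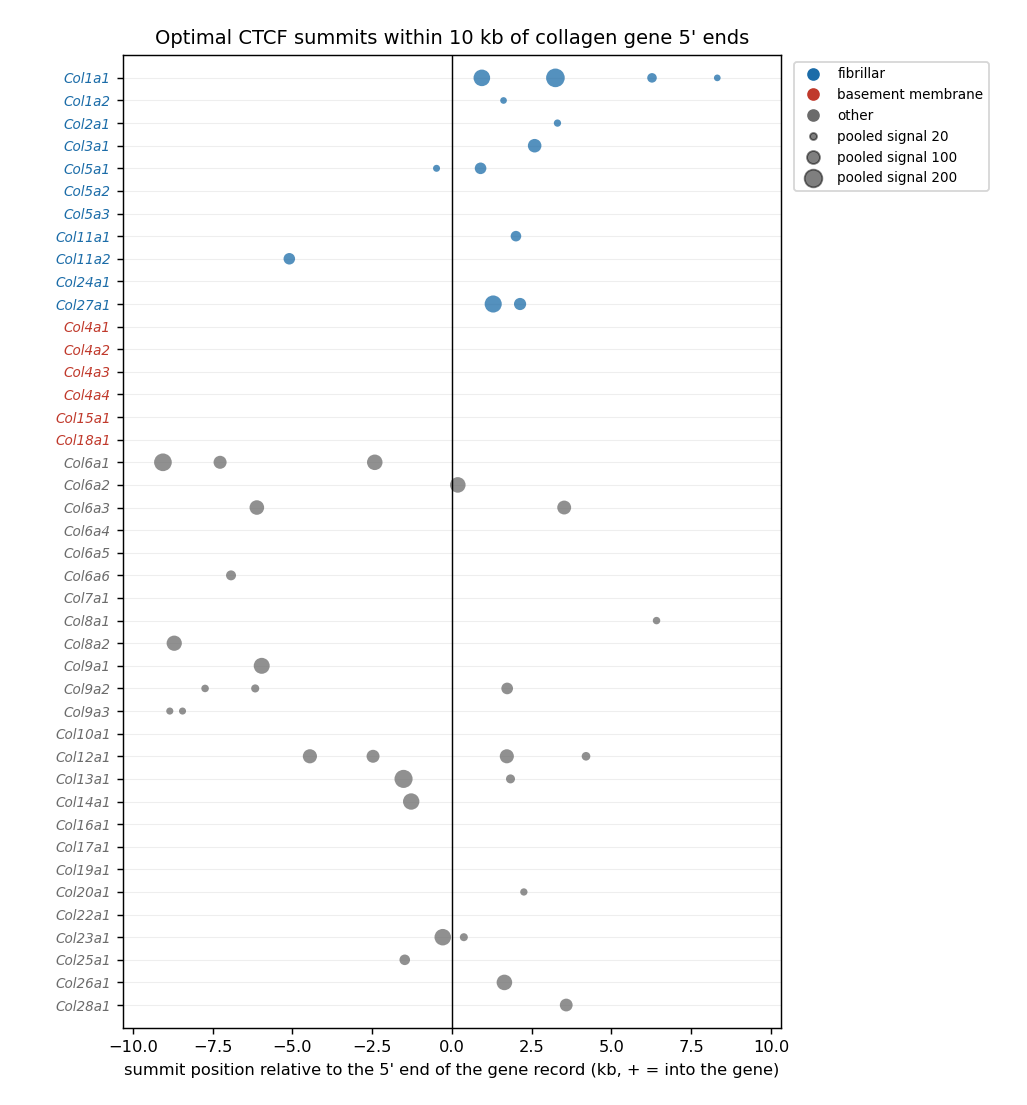
Optimal CTCF summits within 10 kb of the 5' end of each of the 42 collagen genes (rows, by class), with the position in kb on the horizontal axis and positive values into the gene. Dot area grows with the pooled signal value, fibrillar dots lie mostly to the right of the line, and the 6 basement membrane rows are empty.

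Type VI chains build the beaded microfibrils that surround muscle cells. Col6a1 and Col6a2 lie in a row on chromosome 10, with 85.2 kb and 0 peaks between them. Col6a1 had 3 peaks upstream and none inside its 17.4 kb, at 2.42 kb (151, with 73.7 and 77.8), 7.26 kb (103, with 50.7 and 50.9) and 9.06 kb (200.0, with 96.6 and 104). All 3 were above the list median in the pooled data, and the farthest was the highest in both libraries. Col6a2 had 1, at 0.185 kb in a noncoding exon (152, with 84.7 and 68.0), the summit nearest to a start in the family. Col6a3 had 1 upstream at 6.11 kb (132, with 66.3 and 66.8) and 4 inside, from 3.52 kb (118, with 57.2 and 61.5) to 61.7 kb (18.0, with 14.6 and 5.56). Col6a1, Col6a2 and Col6a3 each had a peak above 100 within 10 kb, a limit chosen after the values were seen. The share of all protein-coding genes above it was not counted. Over all genes with a peak within 10 kb, the strongest had a median of 90.4. Among Col6a4, Col6a5 and Col6a6, which lie in a row on chromosome 9, only Col6a6 had a peak within 10 kb, at 54.5. There 1 peak separated each gene from the next. Col28a1, a related chain known from nerve, had 3 inside, at 3.58, 106 and 126 kb (98.4, 78.8 and 151).

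Of the 4 collagens that span the cell membrane, 3 had a summit within 10 kb of the 5' end. The share of all protein-coding genes was 51.9%, and the interval for 3 of 4 ran from 19.4 to 99.4%. Col13a1, found at the neuromuscular junction, had 1 upstream at 1.515 kb (209.7, with 112 and 97.1) and 6 inside, of which those at 101 and 140.2 kb had signals of 216 and 224.7. Col23a1 had 1 upstream at 0.286 kb (172.6, with 100.5 and 73.6) and 7 inside, the strongest at 249.9 kb of 294.0 kb (256, with 147 and 112). In both genes the strongest peak inside was higher than that near the start. Col25a1, the longest member at 468.4 kb, had 1 upstream at 1.48 kb (62.9) and 5 inside, of which 3 stood between 442 and 445 kb. Col17a1, the chain that anchors epithelial cells, had 2 inside, at 17.5 and 33.0 kb (91.5 and 191.5).

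The chains with interrupted helices that coat fibrils had a peak within 10 kb at 6 of 9 genes. The exact interval for this count, 29.9 to 92.5%, holds the 51.9% of all protein-coding genes. Col12a1 and Col14a1 bind type I fibrils: Col12a1 had 4, on both sides of the start (37.6 to 123), and Col14a1 1 upstream at 1.27 kb (169.7, with 86.7 and 82.1). Col9a1, Col9a2 and Col9a3, which coat cartilage fibrils, had 1, 3 and 2 within 10 kb, with strongest signals of 161, 79.5 and 21.2. Both Col9a3 peaks also lay within 1 kb of the 5' end of another gene, Ogfr, and that gene's start is nearer to them. Col20a1 had 1 at 2.26 kb (23.1), and a stronger one just past the limit at 10.09 kb (163.9, with 80.5 and 80.6). Col16a1, Col19a1 and Col22a1 had none within 10 kb but 2, 4 and 6 inside, led by the Col16a1 peak at 39.7 kb (269, with 142 and 130.2) and the Col22a1 peak at 116 kb (256.5, with 152 and 109.5).

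Col26a1, which falls in no class, had 7 peaks inside, with that at 92.2 kb the strongest of the other types (277.9, with 133 and 141) and that at 1.65 kb its only one within 10 kb (152, with 77.0 and 74.4). Of the short chains that form networks, Col8a1 had 3 inside (24.6 to 142.8) and Col8a2 4 inside (20.8 to 145.0). Col10a1, the chain of growth plate cartilage, and Col7a1, which forms the anchoring fibrils of skin, had no peak inside or within 10 kb. They are 7.10 and 31.3 kb long, and the nearest summits lay 21.7 kb (76.8) and 17.0 kb (183) upstream.

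CTCF peaks lay inside 37 of the 42 collagen genes (88.1%), against 47.3% of all protein-coding genes. Collagen genes are long, with a median of 110.9 kb against 17.6 kb, and among genes of at least 100 kb the counts were 24 of 24 against 92.1%. Per 100 kb of gene there were 2.56 peaks in collagen genes and 2.36 in all protein-coding genes. Within genes of at least 100 kb the figures were 2.30 and 1.74, and within shorter ones 4.31 and 3.26. By class the density was 3.25 in fibrillar, 2.96 in basement membrane and 2.23 in other genes. Within genes of at least 100 kb, which include every basement membrane gene, it was 2.93, 2.96 and 1.91 in that order. The count of genes with a peak inside therefore stands beside a large difference in length. Over all lengths together the density differed less, but in each of the 2 length groups it was higher in collagen genes.

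**Figure D4:**
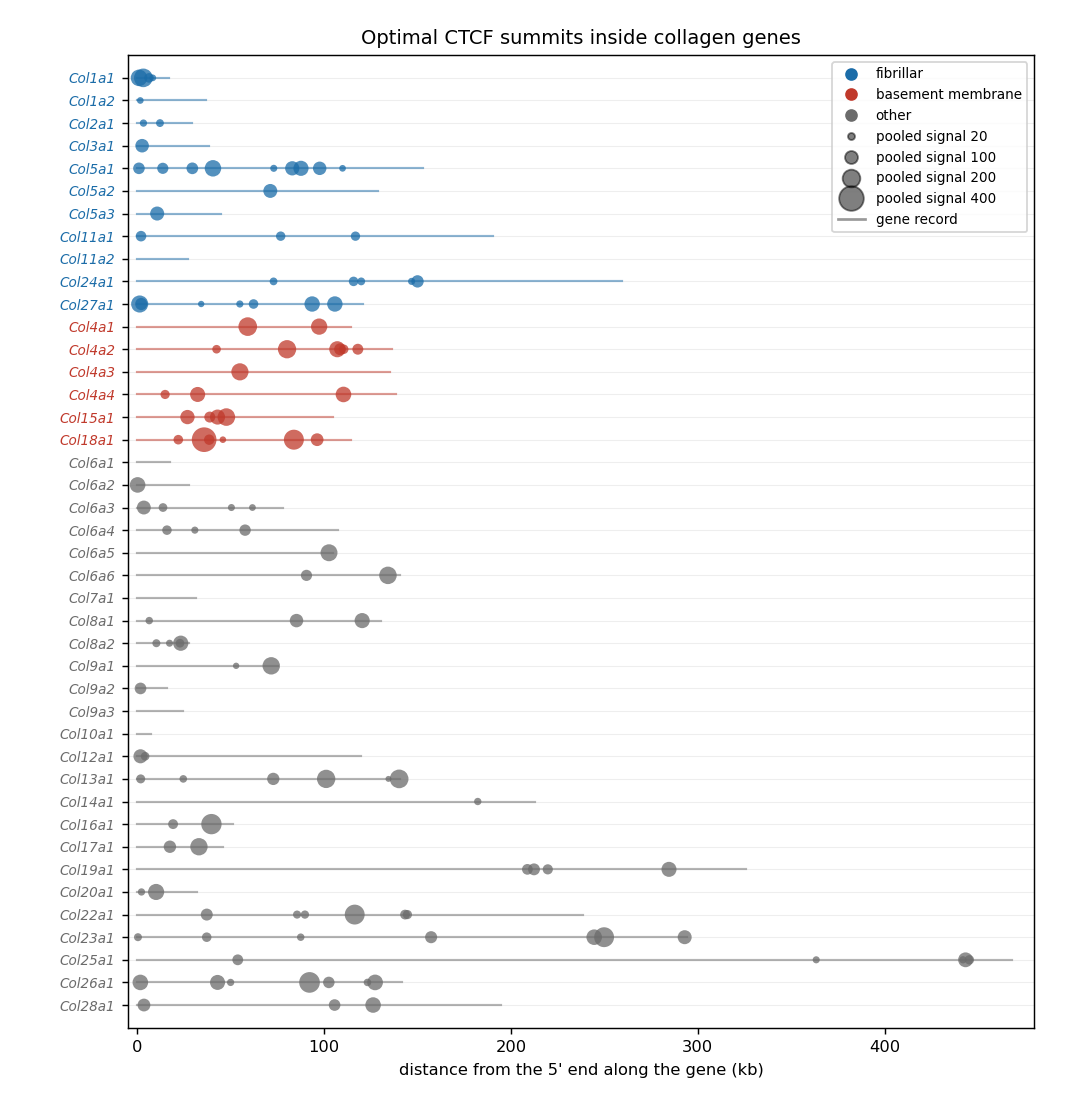
Optimal CTCF summits along each of the 42 collagen gene records, drawn as lines from the 5' end with distance in kb, coloured by class and with dot area growing with the pooled signal value. Basement membrane genes have dots in the body only, the largest being that of Col18a1 (401), and Col5a1 has the most dots (9).

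The peaks inside basement membrane genes had the highest median signal of the 3 classes. Their median pooled signal was 134, against 67.4 in fibrillar genes, 75.9 in the other types and 54.5 over all in-gene peaks. Of the 22 peaks inside basement membrane genes, 16 (72.7%) reached the median of the optimal list and 6 its top decile. Inside fibrillar genes 18 of 34 peaks reached that median (52.9%), and inside the other types 38 of 68 (55.9%). Over all protein-coding genes 46.5% of in-gene peaks did. These values are of the optimal list alone. The conservative list held 5 further peaks inside basement membrane genes, all weak (12.4 to 23.9) and 19.2% of its 26 there. That share was 0% in fibrillar genes, 3.08% in the other types and 8.91% over all protein-coding genes. The medians above leave these weak peaks out. Among peaks inside genes or near 5' ends, 19 of 36 fibrillar peaks reached the median and 2 the top decile, and of 85 peaks of the other types 50 reached the median and 11 the top decile. Near 5' ends, the strongest peak of a gene had a median of 77.9 in the 8 fibrillar genes and 132 in the 17 of other types, against 90.4 over all genes with one.

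Of the 124 in-gene peaks, 112 lay in introns, 7 in noncoding exon sequence and 5 in coding exons (4.03%), against 5.83% in coding exons over all genes. The 5 were in Col6a3, Col8a2, Col16a1, Col28a1 and Col23a1, none of them fibrillar or of basement membranes. Coding sequence of the collagen genes was also searched for the core. It held 67 matches of the core (34.9 per 100 kb, against 44.8 over all coding sequence), and 2 of them (2.99%, against 5.84%) had a summit within 50 bp, those in Col8a2 (38.3, with 23.6 and 12.9) and Col16a1 (53.2, with 28.9 and 22.9). With counts of 5 and 2 these shares carry wide counting error.

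The core was found within 50 bp of 118 of the 143 summits (82.5%, exact binomial interval 75.3 to 88.4%), searched on both strands, against 73.4% of the 43380 optimal peaks on chromosomes 1 to 19. Windows of the same size 1000 bp to the left and right of the summits held one at 1.40% and 0% (0 of 143), against 2.81% and 2.96%. By class the share was 83.3% in fibrillar, 90.9% in basement membrane and 80.0% in other genes. Peaks with a core were higher than those without, with medians of 98.1 and 30.4, and over all peaks the medians were 80.3 and 31.2. Peaks without a match include strong ones, such as those 2.42 and 7.26 kb upstream of Col6a1, which says only that these letters are not in the window. A core read on the same strand as the gene at 50 of 102 in-gene peaks (49.0%), close to the 47.9% over all genes.

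A pair of cores without overlap lay within 150 bp of 12 of the 143 summits (8.39%, interval 4.41 to 14.2%), against 6.69% with at least 2 over all peaks in windows of the same 301 bases. The pair was on the same strand at 9 of the 12, including Col18a1, and of all peaks with exactly 2 cores 51.1% had them so. Among the 12 were 3 peaks inside Col27a1, that 0.286 kb upstream of Col23a1 and that 6.11 kb upstream of Col6a3. The median signal of the 12 was 148, and that of collagen peaks with 1 core was 88.9. Over all peaks the medians were closer, 91.8 with at least 2 cores and 76.2 with 1.

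RefSeq promoter windows, which run from before to just after a gene's start (build GRCm38.p6), matched 33 of the 42 genes by symbol, in 36 windows. A core lay in 10 of these windows (27.8%), against 14.5% of all promoter windows, while a summit lay in 2 (5.56%, against 7.10%), those of Col27a1 and Col6a2. The windows of Col4a2, Col5a1 and Col13a1 were among those with a core in their letters and no optimal summit.

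The optimal list was filtered on agreement between peak lists, so the 140 of 143 collagen peaks found in both libraries may describe that choice. At these peaks replicate 2 over replicate 1 had a median log2 ratio of -0.21 (from -1.94 to 0.92). Replicate 2 was the lower at 107. The 3 peaks found in 1 library only were those 0.481 kb upstream of Col5a1, at 119.9 kb in Col24a1 and at 24.6 kb in Col13a1, all of pooled signal below 30. The medians by class were -0.23 in fibrillar, -0.24 in basement membrane and -0.20 in other genes, and the ranges of the classes overlapped. Signals of the libraries were not scaled to each other.

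**Figure D5:**
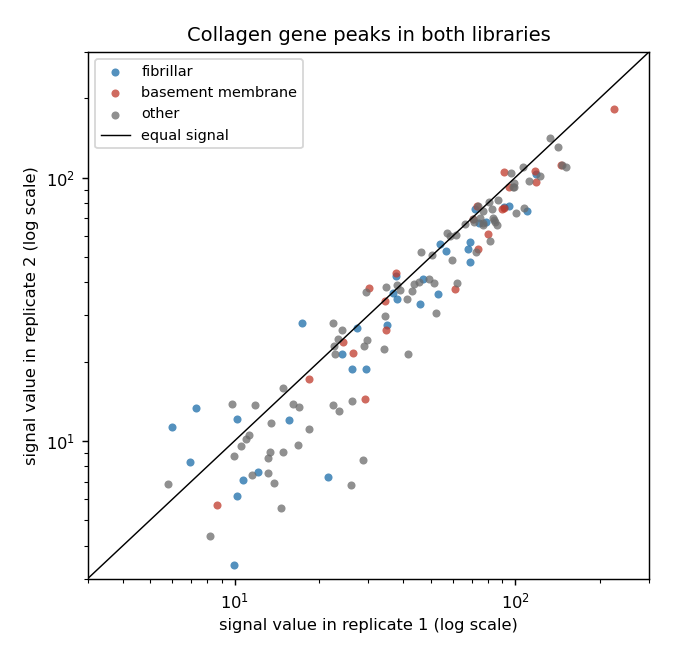
Signal value in replicate 1 (horizontal) and replicate 2 (vertical), both on log axes, of the 140 collagen gene peaks found in both libraries, coloured by class, with a line of equal signal. Most points lie just under the line, and the scatter is widest among weak peaks.

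Genes that make, process, bind and degrade collagens were counted in the same way. Of 41 such genes, 26 (63.4%) had a summit within 10 kb of the 5' end, against 51.9% of all protein-coding genes, with an exact binomial interval of 46.9 to 77.9% that holds that share. Enzymes and chaperones of the endoplasmic reticulum that modify and fold the helix had one at 10 of 16, led by P3h3, a prolyl 3-hydroxylase (2.17 kb upstream, pooled signal 196, 98.1 ± 10.7, SD, n = 2). Enzymes that trim propeptides and cross-link fibrils had one at 7 of 13, led by the propeptidase gene Adamts14 (2.56 kb upstream, 149, 73.8 ± 5.37). Receptors had one at 5 of 7, led by the receptor kinase gene Ddr1 (1.42 kb upstream, 136.5, 68.7 ± 14.3), and collagenases and gelatinases at 4 of 5, led by the gelatinase gene Mmp2 (8.94 kb upstream, 342.5, 172 ± 18.7). The Mmp2 peak was higher than any within 10 kb of a collagen gene, where Col1a1 led at 223.2. Serpinh1, the collagen chaperone, had none, with the nearest summit at 12.1 kb.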

How the data were processed

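Peak lists of CTCF ChIP-seq in 2 libraries of 1 group were used. According to the text files beside them, the authors called relaxed lists of 300000 peaks on each library and on both together, each against a control alignment not used here, and derived the optimal (44533 peaks) and conservative (43221 peaks) lists by IDR, on mm10 per the labels. Aligner, peak caller and scaling: not given in the sources used here. Signal in the deposited lists is the authors' value per peak and is never negative. It was used to describe and rank peaks, and depth per library is unknown.

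Summits (peak start plus the authors' offset) were counted within 10 kb of the 5' end of GENCODE M21 gene records and inside them, for collagen genes and all protein-coding genes of chromosomes 1 to 19. The CTCF core consensus of 14 bases, with at most 2 mismatches, was searched on both strands of GRCm38 within 50 bp of summits. Its search was tested on simulated data. Library values are of the nearest summit within 100 bp. The 95% intervals are exact binomial ones and hold counting error alone. A count of 0 allows up to 3 counts. There is no contrast, so no test was made. Python 3.11.15, pandas 2.3.3, numpy 2.4.6 and scipy 1.17.1 were used.

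Members, classes and the 41 pathway genes were chosen with earlier results of these data known. Genes named by rule are all type IV genes, the 3 members of each class with the strongest peak within 10 kb, the 5 with most peaks inside (ties included), the strongest inside each class, 9 chains well known from heart, those nearest the 10 kb limit, those without a peak and the strongest pathway gene of each role. Other members are named so that all are accounted for, after their values were seen, as are Serpinh1, the counts by intron, by side of the 5' end and of paired cores. Alternatives were the conservative list, each library's own strongest peaks, peaks at or above the median signal, other windows, mismatch limits, transcript starts and overlap of intervals.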

Additional observations from a re-analysis of the deposited data

Results flagged for a closer look

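The conservative list, which the main counts do not use, held 7 peaks inside collagen genes that were not in the optimal list. They are 5.83% of the 120 peaks that list has inside collagen genes, against 8.91% over all protein-coding genes. They lay in 4 genes, 3 of them in Col4a2, 2 in Col18a1 and 1 each in Col28a1 and Col23a1, so 5 of the 7 were among the 26 conservative peaks inside basement membrane genes. Their signals ran from 12.4 to 23.9 with a median of 14.7, below the optimal list's median of 60.8. Both libraries had each of them. The Col18a1 peak at 7.16 kb gave 9.72 in replicate 1 and 6.67 in replicate 2, and is the only one of the 7 within 10 kb of a 5' end. The 3 in Col4a2, at 100, 102.5 and 109.4 kb, stood among or just before the optimal peaks that begin at 107 kb. Why the lists differ was not tested.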

How the results depend on the processing

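No paired analysis was possible because there is 1 group and the result comes from no test. Of 61 alternatives, 49 left a count within 1.5 times its main value or a share inside the main share's exact interval, a limit that admits moves such as 25 to 19 or 34 collagen genes. With a 50 kb window 40 collagen genes, 6 of 6 basement membrane genes, 40 pathway genes and 3 peaks at the type IV pair starts were counted, where 83.7% of all protein-coding genes had a peak. With the conservative list 1 basement membrane gene had a peak within 10 kb (Col18a1), and with the starts of any transcript 4 did. With optimal peaks at or above the median signal, 17 of 41 pathway genes had one, where 32.4% of all protein-coding genes did, and 72 of 124 peaks inside collagen genes remained (58.1%, against 46.5% of those inside all protein-coding genes). The core share was 44.1% with at most 1 mismatch and 93.7% with at most 3. By overlap of the peak interval, 10.5% of in-gene peaks touched a coding exon. Leaving out each library in turn gave 24 to 25 collagen genes within 10 kb, 7 in both cases for fibrillar genes, 17 in both for the other types, 0 to 1 for basement membrane genes (1 without replicate 2, Col18a1 at signals of 9.72 and 8.66), 28 to 29 pathway genes, 36 to 37 genes with a peak inside, 123 to 129 peaks inside, core shares of 79.4 to 79.7%, coding exon shares of 3.88 to 4.88% and 0 peaks at the type IV starts. The causes were not tested. A narrower window or a higher signal limit could only leave the 0 of 6 at 0. Classes of 6 and 11 genes leave wide intervals.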
